A study of Ditylenchus destructor and Heterodera glycines and Meloidogyne incognita with 162 samples.

Results

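The genes described here are 150 genes of the soybean cyst nematode Heterodera glycines whose read counts were highest at the 24-44 cell and 64-78 cell stages, the stages of the series at which gastrulation takes place. They were chosen out of the 18219 genes of the H. glycines table, and the tables of the 3 species in the series together hold 79337 genes. For each gene, counts were divided by the library total and scaled to 1000000 (CPM). These values were then reduced to a median per stage. The score of a gene is the log2 ratio of the lower of its medians at 24-44 cell and 64-78 cell to the highest of its medians at the 8 outer stages, with 1 CPM added to both. The 150 genes of highest score are called members below. The outer stages are those of cleavage (Zygote, 2-cell, 4-cell and 8-cell), the L1 larva, the Moving embryo, and the elongation stages 1.5-fold and 2-fold. The Comma stage took no part in the choice.

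The series profiled single embryos of 3 plant-parasitic nematodes by Smart-seq2, a full-length RNA-seq method for very small inputs, in 162 libraries. The 54 H. glycines libraries cover 11 stages, with 5 libraries per stage and 4 at 2-fold. All were whole embryos or L1 larvae of strain Hg5#, taken from cysts on soybean roots, with no treatment in any group. Stages were told apart by cell number or body shape under the microscope, so a library of the 24-44 cell stage can come from any embryo within that span.

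Gastrulation in nematodes is the inward movement of precursor cells of the gut, the germ line and the muscles and pharynx while the remaining cells close over them. It follows the early cleavages, which run largely on RNA laid down by the mother, and it overlaps the period in which transcription by the embryo itself becomes widespread and cells take on their fates. In Caenorhabditis elegans, transcripts of cell-fate regulators are often short-lived at this time, while the products needed for cell division are abundant until the last rounds of division. The H. glycines gene identifiers are paired with no gene names or functions in the tables used here, so members are given by identifier and position, and no role is assigned to any of them. For the same reason the stage could not be checked against marker genes.

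Some libraries stood apart and touch the results below. The totals of the 54 libraries ran from 181109 to 10955776 counts. Moving replicate 2 differed from Moving replicate 1 in 17 genes, none of them a member, while other pairs of the same stage differed in far more (8461 in the Zygote pair of replicates 1 and 3), so both were counted as 1 sample. Replicate 1 of the 24-44 cell stage held the lowest value of its stage in 79 members (52.7%), against 8.94% of all genes. Replicate 3 of the 8-cell stage held the highest value of its stage in 50 members (33.3%, against 13.5% of all genes), and replicate 3 of the Moving stage in 63 members (42.0%, against 18.3%). When the choice was repeated without each of these in turn, 128, 136 and 144 of the 150 members were chosen again. The Comma libraries were shallow, with 432574 to 1828689 counts. Zygote replicate 3, the shallowest library, held 181109 counts and 8-cell replicate 3 held 750757, and both enter the comparison of Zygote against 8-cell. Each library is 1 embryo, and whether the embryos of 1 stage had separate origins is not stated, so the p-values below measure the spread between these libraries. A lower value of a whole embryo cannot be divided between fewer cells that express a gene and less RNA per cell.

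Because the score chose the members, its values are a description. The scores ran from 1.08 to 4.82, a ratio of 2.11 to 28.2, with a median of 1.38, a ratio of 2.60. Scores above 2 were reached by 19 members and scores above 3 by 4. A score above 0 was found for 1016 genes and a score above 1 for 176. The last members at the limit were HG14845, HG01001 and HG03512, each with a score of 1.08. The next genes outside it were HG09573 and HG07258, with scores of 1.08 and 1.07, and HG16471 with 1.07. HG14845 reached stage medians of only 2.00 and 1.67 CPM at the peak stages, whereas HG01001 and HG03512 stood at 1114 and 1062 CPM at 24-44 cell, so the limit runs through genes of very different abundance.

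**Figure D1:**
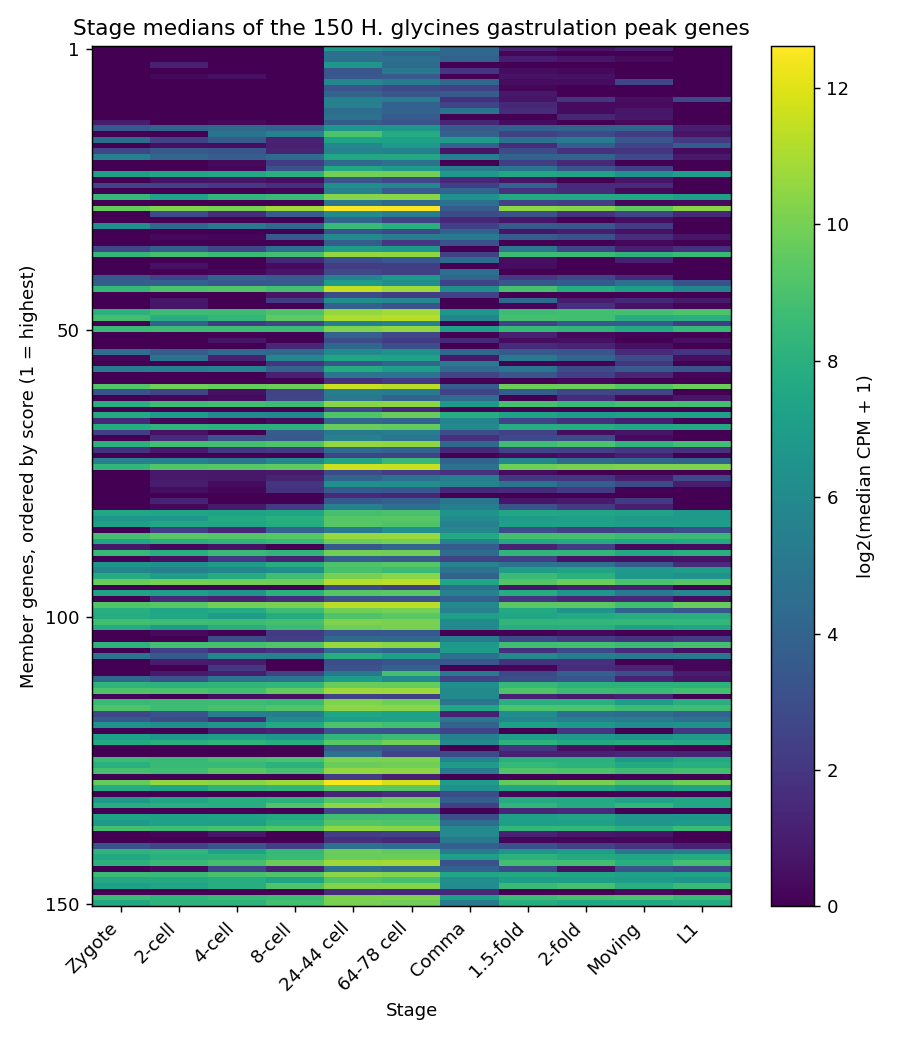
Stage medians of the 150 members as log2(CPM + 1), with 1 row per gene ordered by score and 1 column per stage in developmental order. The bright columns are the 24-44 cell and 64-78 cell stages that the rule used, the abundant members appear as rows that are green at every stage except Comma, and the dark rows are members near 0 outside the peak.

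The members together held a median of 8.25% of all counts at 24-44 cell (5.47 to 9.15%, n = 5) and 7.92% at 64-78 cell (7.21 to 8.38%, n = 5). In the cleavage stages their share climbed in small steps, from 1.87% in the Zygote (1.59 to 1.97%) through 2.01% at 2-cell and 2.27% at 4-cell to 2.64% at 8-cell (2.46 to 4.54%). After the peak the share was 2.04% at 1.5-fold (1.94 to 2.24%), 2.05% at 2-fold (n = 4), 1.36% at Moving (1.29 to 2.35%, n = 4) and 1.74% at L1. The ranges of the peak stages did not overlap those of any other stage. The rule chose the members for higher peak levels in these libraries, Comma apart, so this gap only describes the list. The lowest peak library was 24-44 cell replicate 1 at 5.47%, and without it the 24-44 cell median was 8.40%. The highest library outside the peak was 8-cell replicate 3 at 4.54%.

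**Figure D2:**
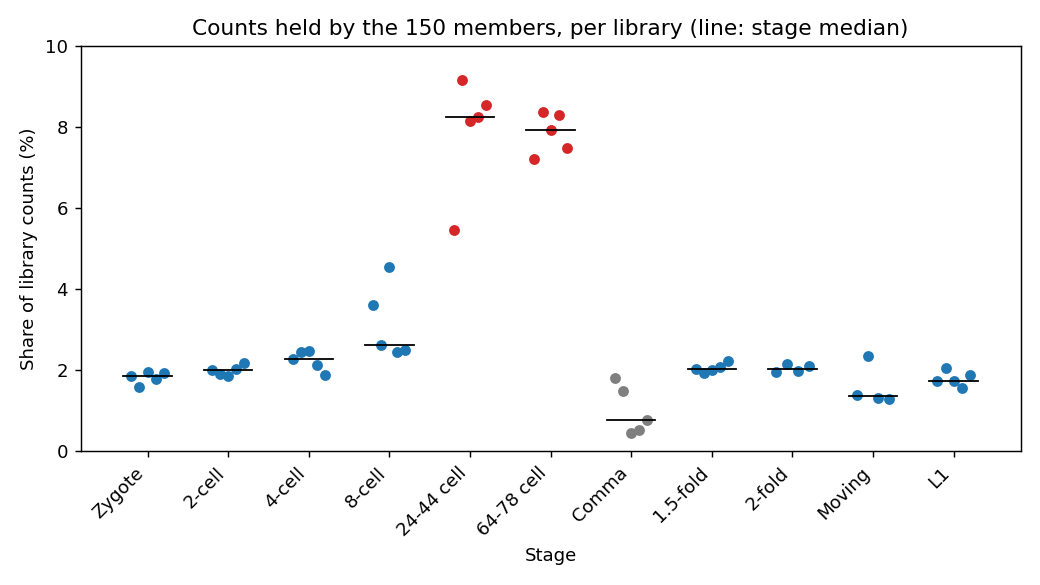
Share of each library's counts held by the 150 members, in percent, by stage, with 1 point per library and a line at the stage median. Peak libraries (red) sit between 5.47 and 9.15%, Comma libraries (grey) between 0.463 and 1.81%, and the other libraries (blue) at or below 4.54%.

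The median member stood at 3.29 CPM in the Zygote, 4.66 at 2-cell, 4.37 at 4-cell and 10.3 at 8-cell. It then stood at 75.4 CPM at 24-44 cell and 73.8 CPM at 64-78 cell, and at 9.78 CPM at 1.5-fold, 6.70 at 2-fold, 4.55 at Moving and 1.57 at L1. The highest outer stage was 8-cell in 52 members (34.7%, against 14.6%) and 1.5-fold in 38 (25.3%, against 16.9%). These stages lie on either side of the peak and Comma. The shares set against those of the members cover genes with a median of at least 1 CPM at a peak or outer stage. Ties were given to the earlier stage. No other outer stage was the highest in more than 13 members.

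The 150 members fell into a group of abundant genes, a group of genes without counts in cleavage, and the rest. CPM was not corrected for gene length, so these groups are set by counts and not by molecules. The abundant group holds the 68 members of at least 100 CPM at both peak stages (45.3%, against 11.7% of all genes), and it accounts for 7.92% of the counts of the peak stages. Most of these genes were present throughout: their median level was 21.8% of their own peak level in the Zygote, 36.1% at 8-cell, 26.3% at 1.5-fold and 22.1% at L1. Their median score was 1.24. The second group holds 28 members with a median of 0 CPM in all 4 cleavage stages (18.7%, against 35.3% of all genes). Their median score was 1.72, and together they held 0.0511% of the peak counts. The median gene of this group stood at 11.6 CPM at 24-44 cell, 5.84 at 64-78 cell, 4.80 at Comma, 0.473 at 1.5-fold and 0 at L1. The remaining 54 members were low outside the peak, with group medians of 19.4 CPM at 24-44 cell and 16.1 at 64-78 cell, and no more than 2.93 CPM at any outer stage. In all, 3 members had a median of 0 at every outer stage (2%, against 12.5% of all genes). A median of 1 CPM or more at each peak and outer stage was found for 67 (44.7%, against 30.7%), with Comma not counted.

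The 3 members of highest score lie close together on contig_156. HG10885 (score 4.82, contig_156:531007-532437, minus strand) had 0, 174, 5.25, 96.4 and 178 CPM in 24-44 cell replicates 1 to 5 and 67.1, 89.7, 142, 61.8 and 14.4 CPM in the 64-78 cell replicates. It was at 0 in all libraries of the Zygote, 4-cell, 8-cell and L1 stages, at 10.6 CPM in 1 library of 2-cell, and at 0.767 to 3.64 CPM at 1.5-fold. Replicates 1 and 3 of 24-44 cell were thus near the floor while all 5 embryos of 64-78 cell carried the transcript. HG10886 (score 3.79, contig_156:532623-534494, minus strand) had 0, 70.7, 0, 37.1 and 23.4 CPM at 24-44 cell and 15.8, 15.2, 35.9, 13.04 and 14.7 CPM at 64-78 cell. HG10879 (score 3.59, contig_156:505920-510021, plus strand) had 1.78, 54.01, 0.291, 33.3 and 23.7 CPM at 24-44 cell and 23.4, 69.7, 73.9, 19.7 and 9.17 CPM at 64-78 cell. The embryos that were low were the same for all 3 genes, namely replicates 1 and 3 of 24-44 cell. At Comma, which the rule did not use, HG10885 had 17.3, 3.32, 20.8, 16.4 and 85.9 CPM and HG10886 0, 33.2, 11.6, 18.05 and 237 CPM, so that both were still found in most Comma libraries.

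The other members among the 10 of highest score had scores of 2.54 or more, and all were at or near 0 in most outer libraries. HG07970 had 3.55, 11.7, 199, 115 and 99.6 CPM at 24-44 cell and 6.27, 21.2, 69.1, 38.8 and 17.2 CPM at 64-78 cell, and was found in 1 of 5 Comma libraries, at 1.64 CPM. HG02006 had 19.5, 9.001, 0.291, 8.42 and 13.9 CPM at 24-44 cell and 20.8, 40.1, 31.9, 80.9 and 0.705 CPM at 64-78 cell, with 1 embryo below 1 CPM in each stage. HG11781 had 1.78, 5.85, 82.2, 37.1 and 9.83 CPM at 24-44 cell and 2.14, 11.96, 8.89, 11.4 and 14.5 CPM at 64-78 cell, and its 8-cell replicate 3 stood at 54.6 CPM, above 9 of its 10 peak libraries. HG05375, by contrast, was separated from the cleavage stages in every library. It had 8.44, 4.501, 60.9, 56.6 and 142 CPM at 24-44 cell and 20.2, 78.04, 39.2, 72.9 and 25.96 CPM at 64-78 cell, and no more than 0.183 CPM in any cleavage library. At Moving, however, HG05375 had a median of 5.15 CPM and reached 10.96 CPM, above 24-44 cell replicates 1 and 2. HG18003 had the lowest median of these genes at 64-78 cell, with 15.6, 9.001, 9.62, 8.42 and 3.73 CPM at 24-44 cell and 4.27, 6.58, 8.08, 6.02 and 0.282 CPM at 64-78 cell. HG03968 was at 0 in 4 of the 10 peak libraries and had 24.2, 15.3, 15.7, 0 and 0 CPM at 24-44 cell and 0, 18.2, 0, 28.4 and 9.31 CPM at 64-78 cell. HG01633 was found in all 10 peak libraries, with 43.3, 40.1, 46.04, 147 and 50.8 CPM at 24-44 cell and 59.2, 38.3, 47.3, 41.1 and 10.3 CPM at 64-78 cell. After the peak it stood at 0.177 to 4.75 CPM at 1.5-fold, 0.746 to 17.5 CPM at 2-fold and 0 to 1.34 CPM at Moving. Its highest 2-fold library was thus above its lowest peak library. The 5 L1 larvae held 11.2, 0, 11.9, 5.61 and 6.24 CPM. Of all 150 members, 23 (15.3%) were under 10 CPM at both peak stages, against 61.7% of all genes.

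**Figure D3:**
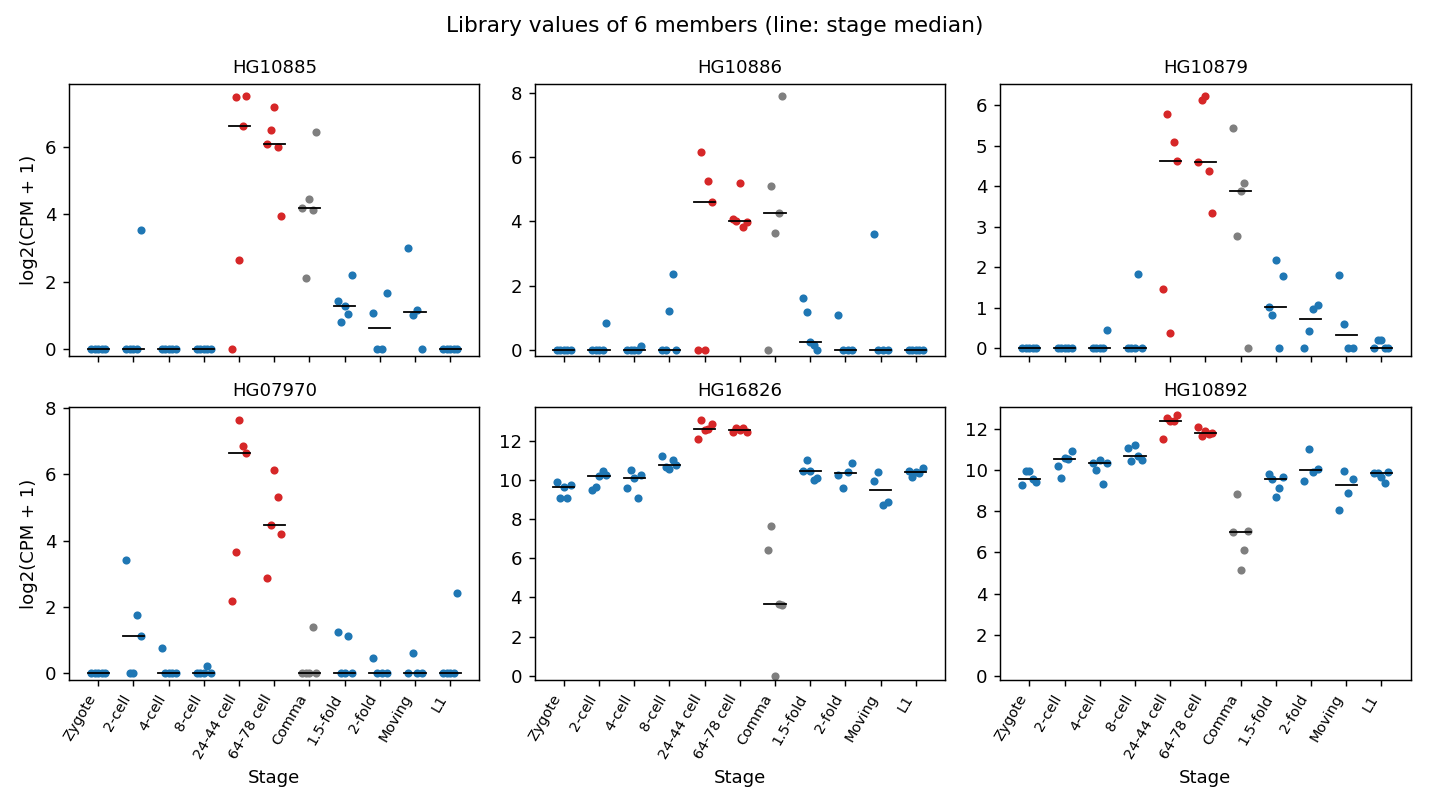
Library values of 6 members as log2(CPM + 1) by stage, with 1 point per library and a line at the stage median: the 4 members of highest score and the 2 members with the most counts. HG10885, HG10886, HG10879 and HG07970 are near 0 in most libraries outside the peak and scatter widely within it, while HG16826 and HG10892 are abundant at every stage except Comma and all of their peak libraries lie above all outer libraries.

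The abundant members had smaller ratios and varied less between embryos. HG16826 (contig_230:43723-45574, minus strand) held the most counts of all members, with 4304, 8506, 5896, 6267 and 7263 CPM at 24-44 cell and 5621, 6391, 5923, 6458 and 5635 CPM at 64-78 cell. Its Zygote libraries stood at 954, 540.3, 801, 541 and 851 CPM, its 8-cell libraries at 2343, 1590.4, 1501, 2049 and 1744 CPM and its 1.5-fold libraries at 1399, 2048, 1400.0, 1031 and 1097 CPM. The lowest peak embryo was therefore above the highest 8-cell embryo. HG10892 (contig_156:553948-556574, minus strand) had 2972, 6023, 5447, 5485 and 6652 CPM at 24-44 cell and 4489, 3251, 3904, 3531 and 3605 CPM at 64-78 cell, against 1414 to 2422 CPM at 8-cell and 411 to 899 CPM at 1.5-fold. HG00817 had 1826, 3446, 2911, 3763 and 3015 CPM at 24-44 cell and 2522, 2554, 2376, 2674 and 2264 CPM at 64-78 cell, against 740.3 to 1181 CPM at 8-cell. These 3 genes did not overlap between peak and outer libraries. HG11263 had 2638, 3527, 3399.8, 3257 and 3272 CPM at 24-44 cell and 2302, 3023, 3374, 3059 and 2448 CPM at 64-78 cell, but its 2-fold replicate 2 reached 5271 CPM, above every peak library. HG15098 had 1504, 2410.0, 2775, 2572 and 2694 CPM at 24-44 cell and 2312, 2687, 2316, 2527 and 2962 CPM at 64-78 cell, and its 8-cell replicate 3 at 1678 CPM exceeded 24-44 cell replicate 1.

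Over the whole list, 22 members (14.7%) had every one of the 10 peak libraries above every one of the 38 outer libraries, a pattern that 0.198% of all genes had. The rule used the same contrast, so this count only describes the list. None of the 10 members of highest score was among the 22. A count in all 10 peak libraries was found for 117 members, against 36.3% of all genes. The spread between embryos, as the coefficient of variation of CPM, had a median of 27.1% at 24-44 cell and 17.1% at 64-78 cell over the 68 abundant members, against 34.4% and 25.9% over all 2123 genes of at least 100 CPM at both stages. Over the other 82 members it was 91.1% and 70.1%.

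The peak was also looked for in libraries that had not been used to choose the genes. The choice was repeated 5 times, each time without the libraries of 1 replicate number, and the 150 genes chosen were then read in the libraries left out. Both left-out peak libraries exceeded all left-out outer libraries in 59, 85, 71, 96 and 83 of the 150 genes when replicate numbers 1 to 5 were left out. Over all genes the same was true of 3.01%, 4.42%, 3.31%, 5.58% and 5.07%. In sum this was 394 of 750 (52.5%), against a mean of 4.28% of all genes. The 5 lists share genes, so the 750 are not independent. Only 36.3% of all genes had a count in all 10 peak libraries, so the background includes many genes that could hardly pass. An excess of at least 2-fold was kept in 174 of 750 (23.2%), against 0.887% of all genes. The 5 repeated choices shared 91 to 102 genes with the 150 members. The lowest of the 5 counts, 59, was that of replicate number 1, whose 24-44 cell library had the lowest share of counts.

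The rule favours no direction between the peak stages themselves. It takes the lower of their medians, however, and so disfavours a large difference between them, which limits the calls among members. The 2 stages were compared with edgeR's quasi-likelihood test over all genes, with Benjamini-Hochberg adjustment and a limit of 0.05. Of the 150 members, 146 passed the filter on low counts. A rise from 24-44 cell to 64-78 cell was called in 1 member, HG01738, where 0.169% of the 8260 genes tested rose. A fall was called in 0 members, where 0.23% of the genes tested fell. At an unadjusted p under 0.05, 9 members differed (693 of all genes), and DESeq2 called the same numbers of members, 1 higher and 0 lower. HG01738 (contig_025:205497-208462, plus strand) had 1.11, 96.3, 32.9, 38.3 and 13.9 CPM at 24-44 cell and 576, 531, 463, 422 and 264 CPM at 64-78 cell. The ranges did not overlap, and the log2 fold change was 3.51 (SE 0.72, adjusted p = 0.0464). The call stood without 24-44 cell replicate 1 or 2 and was lost without any 1 of the other 8 libraries, where the log2 fold change was 3.30 to 3.65, and in a fit of all libraries (3.52). At 8-cell the gene stood at 0 to 8.59 CPM and at 1.5-fold at 0.109 to 32.8 CPM. Of the 146 members tested, 40 (27.4%) had a positive log2 fold change, against 46.6% of all genes tested, and the medians were -0.21 and -0.05. By stage medians, 98 of the 150 members were higher at 24-44 cell (30.0% of all genes) and 52 at 64-78 cell (38.1% of all genes). Here and in the comparisons below, genes with equal medians are in neither share. A median of 0 was found for 39.9% of all genes at 24-44 cell and 36.8% at 64-78 cell, against 0 members, so these shares are not directly comparable.

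The approach to the peak was read from Zygote against 8-cell, both outer stages. By medians, 94 of the 150 members were higher at 8-cell and 20 lower, where 32.1% of all genes were higher and 21.9% lower. Ties at 0 weigh on both sides: the Zygote median was 0 in 46% of the members and 56.2% of all genes. At 8-cell it was 0 in 25.3% and 49.8%. Of the 85 members that passed the filter on low counts, 73 (85.9%) had a positive log2 fold change, against 49.3% of the genes tested, with medians of 0.67 and -0.02. Single genes rarely passed the test. A rise was called in 2 members, where 0.454% of the 7270 genes tested rose, and a fall in 0, where 0.413% fell. At an unadjusted p under 0.05, 23 of the 85 members differed, where 686 of the 7270 genes did. DESeq2 called 13 members higher and 0 lower, where it called 428 of 9560 genes higher and 206 lower. HG01116 went from 249, 300.0, 271, 358 and 256 CPM in the Zygote to 1058, 845, 971, 490.0 and 682 CPM at 8-cell, a log2 fold change of 1.50 (adjusted p = 0.0437, edgeR). HG16826, the member with the most counts, rose by 1.32 on the log2 scale (adjusted p = 0.0437, edgeR), and its 5 Zygote libraries all lay below its 5 libraries at 8-cell. The call of HG01116 was lost without any 1 of the 10 libraries (log2 fold changes of 1.37 to 1.67). That of HG16826 stood without Zygote replicate 1 or 8-cell replicate 3 and was lost without any 1 of the other 8 (1.21 to 1.43).

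The sides of the peak were compared as 8-cell against 1.5-fold. By medians, 72 of the 150 members were higher at 1.5-fold (47.1% of all genes) and 70 at 8-cell (29.2% of all genes). Of the 96 members that passed the filter on low counts, 35 (36.5%) had a positive log2 fold change in the TMM-scaled fit, against 52.6% of the genes tested, with medians of -0.20 and 0.09. Of these 96 members, 2 rose, where 11.9% of the 8977 genes tested rose, and 4 fell, where 7.95% fell. Both shares of the members tested were below the background. The rule kept only genes whose medians at both stages lay below the peak, which disfavours large differences between them. These low shares therefore only describe the list. The same limit holds for Zygote against 8-cell and for 1.5-fold against L1. HG10022 went from 0, 5.83, 2.66, 0 and 5.16 CPM at 8-cell to 12.6, 75.2, 44.9, 28.00 and 23.7 CPM at 1.5-fold, without overlap, a log2 fold change of 4.18 (adjusted p = 0.0372, edgeR). HG16098 went from 1.26, 0, 37.3, 1.37 and 6.303 CPM to 26.5, 18.2, 22.6, 538 and 58.8 CPM, a log2 fold change of 4.57 (adjusted p = 0.0426, edgeR). Its ranges overlapped and replicate 4 of 1.5-fold stood far above the others. Without that library the log2 fold change was 2.00 and the call was lost, as it was without 8-cell replicate 1, 2, 4 or 5 or 1.5-fold replicate 5 (4.22 to 4.80). The call of HG10022 was lost without 1.5-fold replicate 1, 2, 3 or 5 (3.75 to 4.402).

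Members that fell across the peak had been present since the Zygote. HG04322 (contig_060:31973-38594, minus strand) had 796, 294, 166, 231 and 210.3 CPM at 8-cell and 38.3, 24.6, 27.2, 13.5 and 52.2 CPM at 1.5-fold, a log2 fold change of -3.10 (adjusted p = 0.000632, edgeR). Its peak libraries stood at 406 to 974 CPM at 24-44 cell and 484 to 775 CPM at 64-78 cell. HG16250 had 276, 228, 368, 340.0 and 418 CPM at 8-cell and 134, 125, 65.2, 62.2 and 96.5 CPM at 1.5-fold, a log2 fold change of -1.38 (adjusted p = 0.00967). HG11821 had 472, 371, 769.9, 715 and 555 CPM at 8-cell and 227, 111, 132, 203 and 243 CPM at 1.5-fold, a log2 fold change of -1.27 (adjusted p = 0.0205). In none of the 3 genes did the libraries of these stages overlap. The calls of HG04322 and HG16250 stood without any 1 library, while that of HG11821 was lost without 1.5-fold replicate 2 or 3 (-1.13 and -1.16). The fourth gene that fell, HG10892, changed by -1.02 on the log2 scale (adjusted p = 0.0474).

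The later course was read from 1.5-fold against L1. By medians, 117 of the 150 members were lower at L1 and 21 higher, where 53.9% of all genes were lower and 24.9% higher. In the TMM-scaled fit, the members that passed the filter on low counts did not show this direction as a group. A positive log2 fold change was found in 49 of 94 (52.1%), against 47.8% of the genes tested, with medians of 0.04 and -0.06. The fit differs from the count by medians in both the scaling and the genes covered, and the part of each was not tested. Of these 94 members, 8 fell, where 5.88% of the 10135 genes tested fell, and 0 rose, where 9.75% rose. At an unadjusted p under 0.05, 26 of the 94 members differed, where 2678 of the 10135 genes did. DESeq2 called 21 members lower and 3 higher, where it called 1422 of 14189 genes lower and 1582 higher. HG02459 went from 7.802, 10.7, 9.37, 15.1 and 18.8 CPM at 1.5-fold to 0.174, 0, 0.588, 0 and 0 CPM at L1, a log2 fold change of -5.82 (adjusted p = 0.00714, edgeR). HG00777 went from 40.03, 16.6, 14.7, 2.604 and 8.49 CPM to 0.697, 0.419, 0, 0 and 0 CPM, a log2 fold change of -5.75 (adjusted p = 0.0104, edgeR). Both were at 0 in 3 of the 5 larvae, and both calls stood without any 1 library. HG16098 changed by -5.32 on the log2 scale (adjusted p = 0.00436) and by -2.93, still called, without 1.5-fold replicate 4. HG04322, which had already fallen from 8-cell to 1.5-fold, fell again to 2.61, 2.24, 0.735, 1.87 and 0.4800 CPM, a log2 fold change of -3.93 (adjusted p = 0.00339). The other 4 genes that fell were HG06472, HG11225, HG13070 and HG15090, with log2 fold changes of -4.93, -3.81, -2.54 and -1.44, and they were named after their values were seen.

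**Figure D4:**
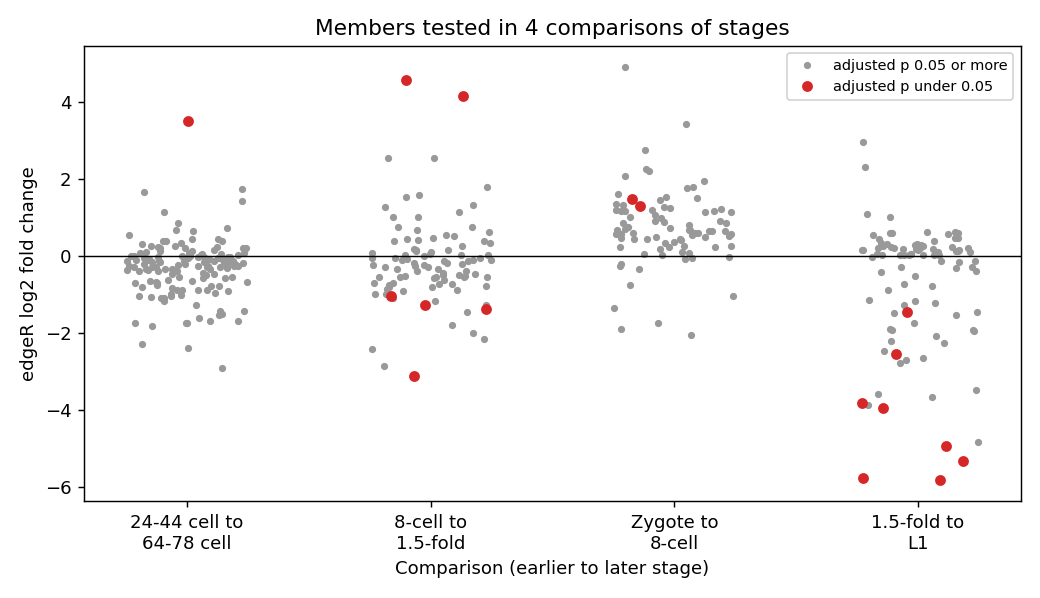
Log2 fold changes (edgeR, later over earlier stage) of the members that passed the filter in 4 comparisons of stages, 1 point per gene, with genes of adjusted p under 0.05 in red. There is 1 red point from 24-44 cell to 64-78 cell, and there are 6 from 8-cell to 1.5-fold, 2 from Zygote to 8-cell and 8 from 1.5-fold to L1, the last all below 0.

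The Comma stage lies between the peak and 1.5-fold and was not used to choose the members, but the peak levels it is set against were, so its values are given without a test. The members' share of Comma counts had a median of 0.774% (0.463 to 1.81%, n = 5), below their share at 8-cell and at 1.5-fold, with all 5 Comma libraries below all 5 libraries of 1.5-fold. Over the 68 abundant members, the median ratio of the Comma level to the mean peak level was 0.0590, with 1 CPM added to both, against 0.250 over the 2055 other genes of at least 100 CPM at both peak stages. A ratio under 0.1 was found in 46 of the 68 (67.6%), against 27.5% of all 2123 genes of that abundance. Comma levels moved with the span of a gene: for spans from 1000 up to 2000 bp the median ratios were 0.0578 for the abundant members and 0.114 for the other genes, and for spans of 4000 bp or more 0.103 and 0.534. The abundant members were the lower ones in each of the 4 span classes compared. The part of RNA quality in these values was not tested.

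The lowest Comma ratios belonged to abundant members. HG16826 had 83.5, 202, 0, 11.5 and 11.3 CPM at Comma, HG11074 27.1, 141, 0, 4.37 and 0 CPM and HG01002 0, 4.16, 23.1, 15.3 and 3.24 CPM. At 1.5-fold the same genes stood at 1031 to 2048, 343 to 454 and 209 to 332 CPM, so that each gene was lower in every Comma library than in any 1.5-fold library. The highest ratios belonged to members of low abundance. HG18090 had 65.1, 54.02, 134, 184 and 0 CPM at Comma, against 0.874 to 9.996 CPM at 24-44 cell and 2.42 to 13.5 CPM at 64-78 cell. HG05206 had 82.96, 32.4, 60.1, 86.9 and 30.8 CPM and HG07972 15.6, 55.7, 18.5, 65.1 and 32.4 CPM at Comma, in every library above all of their own peak libraries. In all, 19 members were higher at Comma than at the mean of the peak stages, and the share over all genes was not computed. The median over all genes was higher at Comma, at 15.3 CPM, against 1.15 at 24-44 cell and 1.62 at 64-78 cell.

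The members were spread over 75 of 238 contigs, with 35 contigs holding 1 member each. Coordinates are those of the deposited gene table, whose genome build is not given in the sources used here. No member's span overlapped that of another gene. An adjacent gene that was also a member was found for 10 members, in 5 pairs, and another member within 10 genes for 38. For comparison, 150 genes chosen by the same formula for 2-cell and 4-cell included 29 with an adjacent chosen gene, and those for Zygote and 2-cell included 2. The pairs were HG01001 and HG01002 on contig_018, HG01632 and HG01633 on contig_024, HG04322 and HG04323 on contig_060, HG06471 and HG06472 on contig_089, and HG10885 and HG10886 on contig_156. Only the last pair lies on 1 strand, with 185 bp between the genes. HG01632 and HG01633 are divergent with 1741 bp between them, as are HG04322 and HG04323 with 2461 bp. The members' spans had a median of 1682 bp, against 2044 bp over all genes and 2790 bp over the 8388 genes of at least 1 CPM at both peak stages, and 75 of the 150 lie on the plus strand.

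Contig_156 held 7 members among its 284 genes, as many as contig_193 with its 874 genes. Members made up 2.46% of the genes of contig_156, against 10% on contig_089, 5.88% on contig_018 and 2.41% on contig_073. On contig_156, 4 of the 7 lie between the start of HG10879 and the end of HG10892. Between or beside them lie other genes with a score above 0. HG10882 just missed the limit, with a score of 1.07 and rank 156, and had stage medians of 42.7 CPM at 24-44 cell, 52.1 at 64-78 cell and 19.9 at 1.5-fold. HG10893, next to HG10892, had a score of 0.94 with 611 CPM at 24-44 cell and 612 at 64-78 cell, and HG10883 a score of 0.79 with 39.0 and 136 CPM. The stretch is not uniform: HG10881, between HG10879 and HG10882, had a median of 197 CPM at 8-cell and 24.7 at 24-44 cell, and HG10888, just past HG10886, had no stage median above 3.59 CPM before Comma and stood at 333 CPM at 1.5-fold. The stretch was singled out after the scores were seen, and its grouping was not tested.

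**Figure D5:**
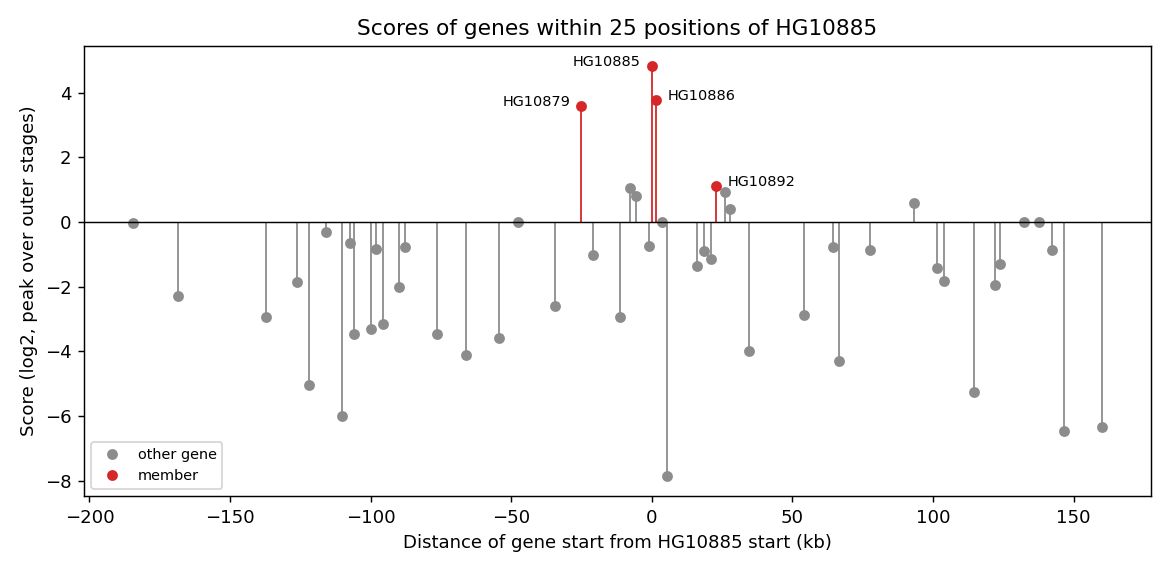
Scores of the genes within 25 gene positions of HG10885 on its contig, against the distance of each gene start from that of HG10885 in kb, with members in red and other genes in grey. Of the members, HG10879, HG10885 and HG10886 stand at 3.59 to 4.82 and HG10892 at 1.12, a few grey genes lie between 0 and 1.07, and most other genes lie below 0.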

How the data were processed

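Raw read counts per gene, as deposited by the authors, were used for the 54 H. glycines libraries. Per the study's methods, single-embryo Smart-seq2 reads were trimmed (fastp 0.20.1), aligned with HISAT2 and counted with HTSeq. Reads carried no strand information and no molecular identifiers. The genome build of the gene table is not given in the sources used here. Counts were scaled to CPM for description, and members were chosen by the score defined in the report, with a pseudocount of 1.

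Stages were compared with edgeR 4.0.16 (R 4.3.3): TMM normalization, filterByExpr, a quasi-likelihood fit to the libraries of the compared stages, and Benjamini-Hochberg adjustment over all genes tested. The procedure was run on simulated data with known changes. Its pass mark covered only the largest changes at a spread far below that of these data, so it does not show how many smaller changes are missed here. Alternatives were DESeq2 1.42.0, RLE size factors, no filter, a replicate block, all libraries in 1 fit, each library left out, and for the choice of members another pseudocount, the mean, TMM scaling, Comma added and a depth minimum. Leaving out the libraries that stood apart was added after seeing the data.

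The members, comparisons and groups were chosen with earlier results of these data known. Genes named are the 10 of highest score, the 5 with the most peak counts, up to 3 called in each direction per comparison, those at the limit, adjacent members (5 pairs of equal length, all given), and the 3 highest and 3 lowest Comma ratios.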

Additional observations from a re-analysis of the deposited data

Results flagged for a closer look

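Within groups of 4 or 5 libraries, 16 of 83 groups examined held 1 library far from the others, where chance gives about 1 in 20. The groups are not independent, since the same libraries recur in them. For the share of counts held by the members, 24-44 cell replicate 1 stood at 5.47%, below the others at 8.15 to 9.15%, and Moving replicate 3 at 2.35%, above the others at 1.29 to 1.40%.

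Of the 14 flagged groups of single genes, 6 were low values in 24-44 cell replicate 1: HG10892 at 2972 CPM, HG11263 at 2638 CPM, HG15098 at 1504 CPM, HG02459 at 44.9 CPM, HG01001 at 603 CPM and HG11074 at 605 CPM. HG11074 was also low in 64-78 cell replicate 1, at 1229.8 CPM. Replicate 5 of 64-78 cell was low in HG18003 at 0.282 CPM, in HG01633 at 10.3 CPM and in HG16098 at 7.48 CPM. The other low values were HG02006 at 0.291 CPM in 24-44 cell replicate 3 and HG11781 at 2.14 CPM in 64-78 cell replicate 1. The high values were HG10886 at 35.9 CPM in 64-78 cell replicate 3 and HG01633 at 147 CPM in 24-44 cell replicate 4.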

How the results depend on the processing

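Of the 150 members, 102 to 134 were chosen again under another pseudocount, TMM scaling, Comma added to the outer stages or a minimum of 1000000 counts per library, 92 with means in place of medians, and 91 to 102 when a replicate number was left out. Without 24-44 cell replicate 1, 8-cell replicate 3 or Moving replicate 3, 128 to 144 were chosen again. The share of left-out genes above all outer libraries was 23.2% when at least a 2-fold excess was asked for.

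Counts of called members were more sensitive. From 24-44 cell to 64-78 cell, the 1 rise became 0 with a replicate block and with all libraries in 1 fit, and the 1 rise and 0 falls each became 0 to 1 with single libraries left out. From 8-cell to 1.5-fold, the 2 rises became 6 with DESeq2, 4 without a filter, 7 with all libraries in 1 fit and 0 to 2 with single libraries left out, and the 4 falls became 2 with all libraries and 2 to 4 with single libraries left out. From Zygote to 8-cell, the 2 rises became 13 with DESeq2, 6 without a filter, 0 with a replicate block and 0 to 1 with single libraries left out. From 1.5-fold to L1, DESeq2 called 3 rises in place of 0 and 21 falls in place of 8. The cause of these shifts was not tested. No named gene changed direction, and of the refits of single named genes, 72 without 1 library and 45 others kept the call while 38 and 8 lost it.

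The replicate numbers did not pair the libraries: the correlation of same-numbered deviations ran from -0.07 to 0.08, and none of the pairs exceeded 0.1. The count of all genes called moved with the block from 14 to 8 rises and from 19 to 16 falls from 24-44 cell to 64-78 cell, and from 33 to 24 and from 30 to 43 from Zygote to 8-cell.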
